A study of Mus musculus with 18 samples.

Results

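The T-lineage transcription factors described here are 8 genes, Tcf7, Lef1, Gata3, Bcl11b, Tox, Runx1, Runx3 and Ets1, out of 25589 genes on the array. Every probe that carries one of these names in the scanner files was taken, which gave 21 probes of 43426: 2 for Tcf7, 3 for Lef1, 2 for Gata3, 1 for Bcl11b, 4 for Tox, 2 for Runx1, 2 for Runx3 and 5 for Ets1. They were measured on 18 one-colour arrays, 1 per sample, from thymi of C57BL/6 mice taken 2 weeks after injection of an antibody against DLL4 (anti-DLL4) or of an isotype control antibody (isotype). Total thymocytes gave 3 anti-DLL4 and 4 isotype samples, DN cells, sorted as CD4-CD8-, gave 3 and 3, and DN1 cells, sorted as CD4-CD8-CD44+CD25-, gave 3 and 2. The study's title places the question in the shift of immune cell populations after anti-DLL4. No source ties samples to animals, so p-values measure the spread between these samples, and samples of different populations may share an animal. The design text names 4 animals per antibody, fewer than the 9 arrays of each antibody. If that count covers the whole series, some samples share an animal, while the tests treated all 18 arrays as independent.

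DLL4 is a ligand that thymic epithelial cells present to Notch receptors, and Notch signals direct progenitors that enter the thymus into the T lineage. Tcf7, which encodes TCF-1, is an early target of Notch in these progenitors and acts with Gata3 to start the T-cell programme, and Bcl11b then closes other fates at commitment. Lef1, Tox, the Runx factors and Ets1 act alongside and after them, at commitment, at selection and in the choice between CD4 and CD8 cells.

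The probes are 60-base oligonucleotides, and the results turn on a few of them. Probe numbers run from the brightest probe of a gene, which leads, to its dimmest. The 30 bases at the 5′ end of each Tcf7 probe are shown because both Tcf7 probes carried the calls below; they lie at chr11:52096065-52096094 and chr11:52096782-52096811 of the mm8 build, on the minus strand.
Tcf7 probe 1: ttttttcattctcgctgtagatagcctgaa
Tcf7 probe 2: ttttgtttgctgtaggtcagatgggttgga
Among the 21 probes Bcl11b was read by 1, at chr12:108363444-108363503 of mm8 on the minus strand, that carries its current name. A probe under an older symbol of Bcl11b lies outside the 21 and is described at the end.
Bcl11b probe 1: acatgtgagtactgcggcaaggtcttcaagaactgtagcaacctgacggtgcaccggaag
Ets1 probes 3 and 5 cover the same 50 bases, chr9:32503806-32503855 of mm8 on the plus strand, and are therefore not separate readings of the gene. Their sequences differ at 4 positions, in capitals, counted from 1 at the 5′ end of the shared stretch: A10G, G11C, G37C and C38G, with the base of probe 3 first.
Ets1 probe 3: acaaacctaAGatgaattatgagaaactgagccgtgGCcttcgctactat
Ets1 probe 5: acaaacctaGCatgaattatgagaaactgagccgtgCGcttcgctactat

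Levels are log2 ratios of a probe's processed signal to the 75th percentile of its array (control spots left out), so a level of 0 is a spot as bright as that percentile, and levels are compared between arrays for 1 probe only. Of the 21 probes, 17 were well above background on all 18 arrays. Ets1 probe 5 was so on 16, Tox probe 3 on 14 and Lef1 probe 3 on 7 arrays. Tox probe 4 was well above background on 0 of 18 arrays and was not tested, which left 20 tested probes. Array strength, the 75th percentile itself, ranged from 260.2 to 4295.4, and the 2 dimmest arrays, at 260.2 and 337.9, were isotype DN replicates 1 and 2. In the anti-DLL4 against isotype comparisons the median of all tested probes was -0.42 in thymocytes, -0.65 in DN cells and -0.03 in DN1 cells, so each difference is also given relative to that median (relative difference).

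Tcf7, which encodes the HMG-box factor TCF-1, was the only factor called after anti-DLL4. In DN cells both Tcf7 probes fell, by 2.74 ± 0.60 and 3.08 ± 0.53 on the log2 scale (SE). In thymocytes probe 2 fell by 2.64 ± 0.49. In DN1 cells the differences were as large but missed the threshold. No other factor had a probe past the threshold in any of the 3 populations. Some of their differences, given below, were as large, among them Bcl11b in DN cells and Tox probe 3 in DN1 cells.

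On Tcf7 probe 1 the anti-DLL4 thymocytes had levels of 6.33, 6.35 and 6.44, and the isotype thymocytes 8.69, 8.33, 7.53 and 6.92. DN cells had 4.60, 5.83 and 3.95 after anti-DLL4, and 7.44, 7.46 and 7.71 with isotype. The anti-DLL4 DN1 cells had 3.34, 4.15 and 2.60, and the isotype DN1 cells 5.95 and 6.65. All anti-DLL4 arrays lay below all isotype arrays of their population, with the narrowest gap in thymocytes. On Tcf7 probe 2 the levels were 0.12, -0.27 and 0.42 in anti-DLL4 thymocytes against 3.74, 2.10, 2.99 and 2.10 in isotype thymocytes. They were -1.92, -1.68 and -1.79 in anti-DLL4 DN cells against 1.54, 1.07 and 1.25 in isotype DN cells. In DN1 cells they were -2.86, -3.42 and -3.66 after anti-DLL4 against -0.69 and 0.51 with isotype. Probe 2 separated the groups in each population too.

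For probe 2 the relative differences were -2.22 in thymocytes (limma adjusted p = 0.0159), -2.44 in DN cells (adjusted p = 0.00439) and -3.19 in DN1 cells (adjusted p = 0.0515). For probe 1 they were -1.07 (adjusted p = 0.226), -2.10 (adjusted p = 0.0196) and -2.91 (adjusted p = 0.164) in the same order of populations. The 95% interval of the unshifted DN1 difference was -4.47 to -1.97 for probe 2 and -4.36 to -1.51 for probe 1. One member probe of 20 was thus called lower in thymocytes, where 0.232% of all tested probes were called lower, 2 of 20 in DN cells, where 1.39% were, and 0 of 20 in DN1 cells, where 0.0655% were. At an unadjusted p under 0.05 the members numbered 5, 8 and 10 of 20, while all tested probes numbered 5089 of 34920, 9867 of 34253 and 1914 of 36661. With 2 isotype DN1 arrays, the DN1 comparison is the least precise. The thymocyte call was lost without anti-DLL4 thymocyte replicate 1 (adjusted p = 0.057), without anti-DLL4 thymocyte replicate 2 (0.0885) and without isotype thymocyte replicate 3 (0.051), and both DN calls were lost without the 2 dim isotype DN arrays (adjusted p = 0.119 for probe 2 and 0.243 for probe 1, at differences of -3.04 and -2.92). These 2 arrays also stood apart in the summed signal of 3 erythroid markers. It was 7.12, 3.9 and 15.8 on the anti-DLL4 DN arrays, and 614, 803 and 6.33 on isotype DN replicates 1, 2 and 3, and its part in the DN result was not tested. The DN call of probe 1 was also lost without anti-DLL4 DN replicate 1 or 3 or isotype DN replicate 1 or 2, each left out alone (adjusted p = 0.0519 to 0.0988), and DN1 probe 2 passed without anti-DLL4 thymocyte replicate 3 (0.0468) or isotype thymocyte replicate 1 (0.0443).

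**Figure D1:**
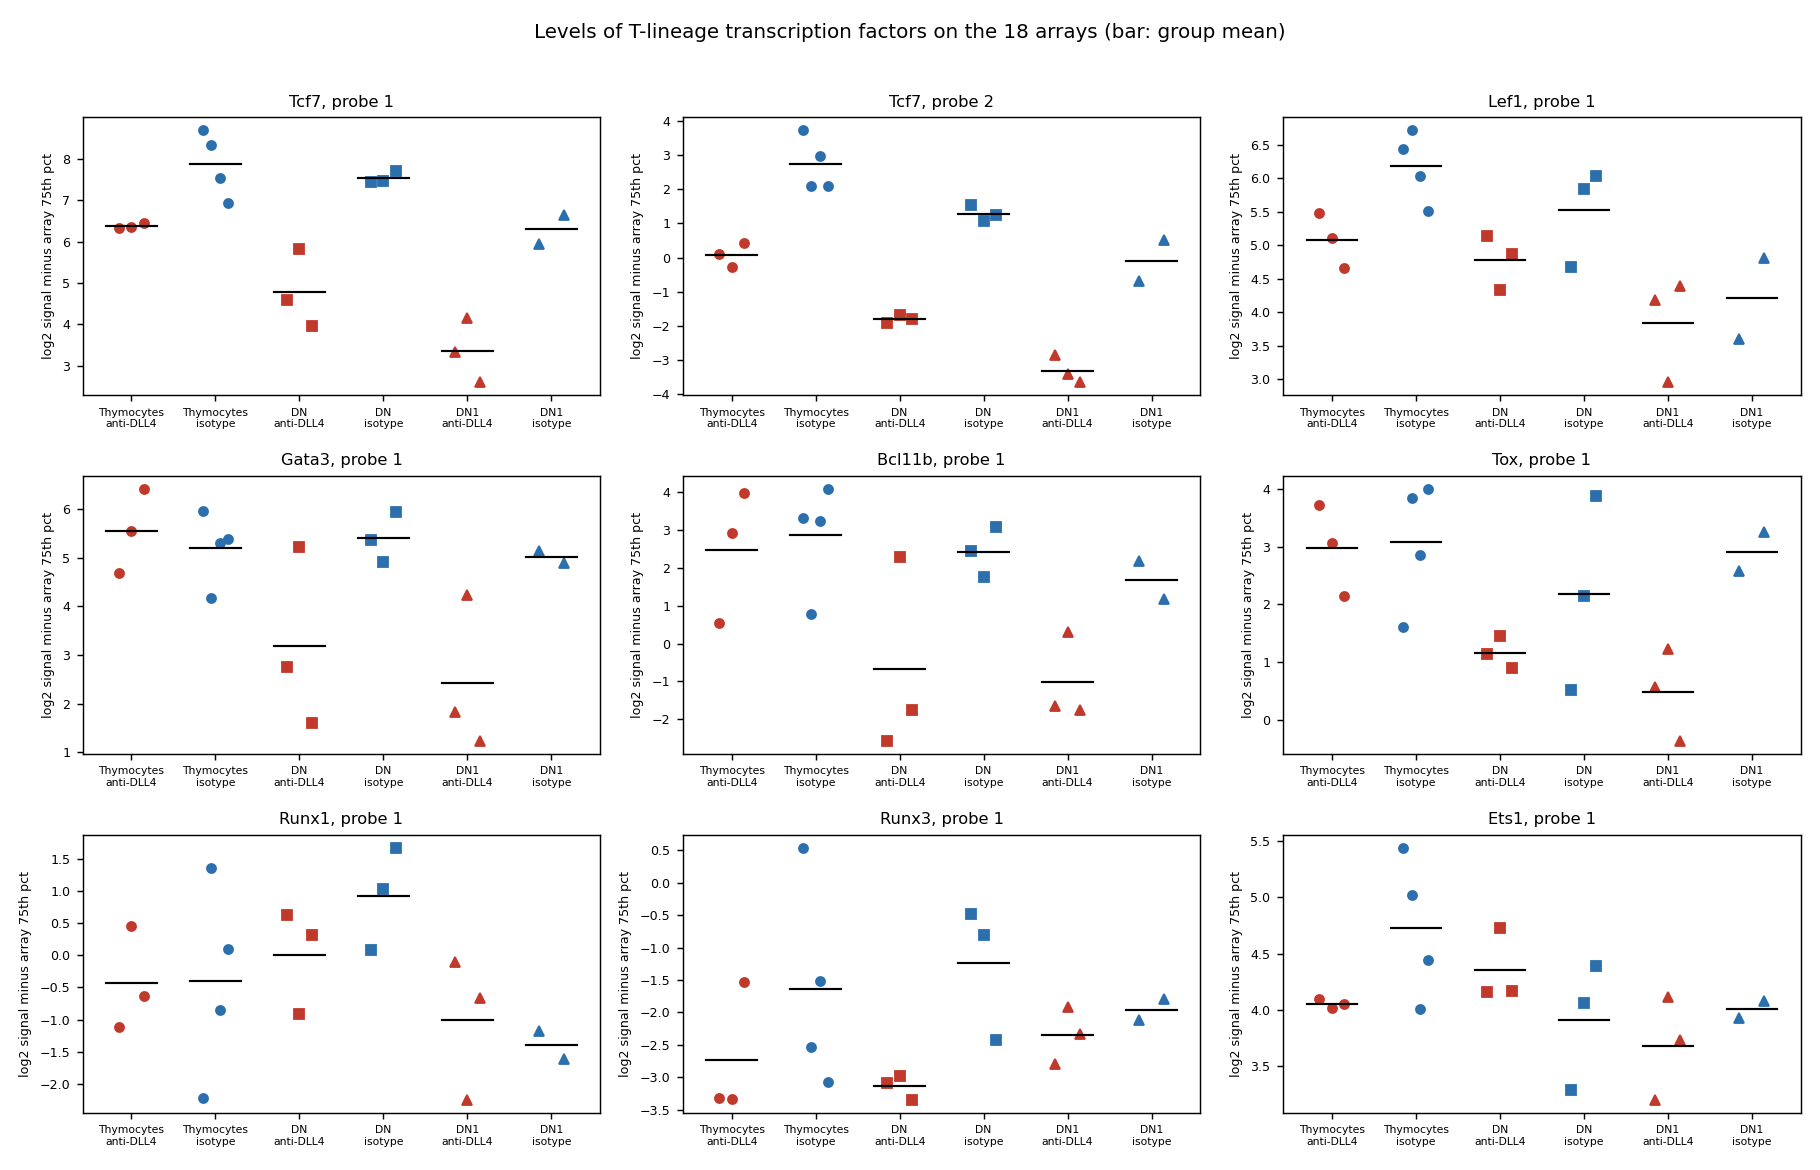
Level of 9 probes (log2 signal minus the array's 75th percentile, vertical axis, own scale per panel) on each of the 18 arrays, by population and antibody; red points are anti-DLL4 arrays, blue points isotype arrays and bars group means. Both Tcf7 probes lie lower on every anti-DLL4 array than on the isotype arrays of the same population. Gata3 and Bcl11b spread widely after anti-DLL4 in DN and DN1 cells, and Bcl11b also in thymocytes with either antibody.

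Within a slide, the sign of the Tcf7 differences follows from the levels above, where all anti-DLL4 arrays lay below all isotype arrays. Only their size is added here. Slides 1, 2 and 4 each held 1 anti-DLL4 and 1 isotype thymocyte array. Probe 2 differed by -3.62, -2.37 and -2.57 there, and probe 1 by -2.36, -1.98 and -1.08. Relative to the pair's median of all tested probes, probe 2 was at -2.46, -1.61 and -2.91. Probe 1 was at -1.2, -1.22 and -1.42. On slide 3, the only one with a DN pair, the DN differences were -3.22 for probe 2 and -1.61 for probe 1. Relative to that pair's median they were -2.29 and -0.68. The DN1 pairs on slides 3 and 5 differed by -2.73 and -4.17 on probe 2, or -2.38 and -4.03 relative to their medians. With slide as a fixed block, probe 2 in thymocytes was at -2.81 (adjusted p = 0.0523) and probe 1 in DN cells at -2.83 (adjusted p = 0.073), so these calls were lost, and the DN call of probe 2 held.

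In bulk samples, fewer cells of a type and less RNA of a gene per cell cannot be told apart. Summed over 7 markers, T-cell signal was also lower on all anti-DLL4 arrays in DN and DN1 cells, and overlapped in thymocytes. Read singly in DN cells, Cd247, Lck and Cd5 overlapped, and the other markers did not. Cd5 ran from 2.41 to 3.22 after anti-DLL4 and from 1.87 to 4.29 with isotype there. Of all tested probes, 21.7% in DN cells and 9.55% in DN1 cells were lower on all anti-DLL4 arrays. The summed signal of 7 of 7 T-cell markers, in multiples of the array's 75th percentile, was 343 to 862 in anti-DLL4 and 564 to 1920 in isotype thymocytes. It was 161 to 414 in anti-DLL4 and 589 to 907 in isotype DN cells, and 72.5 to 137 in anti-DLL4 and 271 to 398 in isotype DN1 cells. Their median relative difference was -0.66, -1.03 and -1.91 in thymocytes, DN and DN1 cells, and none of the 7 was called. Of 7 B-cell markers 4, 6 and 0 were called higher in thymocytes, DN and DN1 cells. Their summed signals were 99.4 to 376 in anti-DLL4 and 23.0 to 48.7 in isotype thymocytes, 634 to 899 in anti-DLL4 against 39.1 to 46.4 in isotype DN cells, and 404 to 649 in anti-DLL4 against 242 to 422 in isotype DN1 cells. All 7 T-cell and all 7 B-cell markers were well above background on every array, except Cd22 of the B-cell list on 1 isotype thymocyte array. Of 5 NK-cell markers 3 were called higher in thymocytes and 3 in DN cells (median relative differences 3.77 and 4.47), and of 5 conventional dendritic cell markers 3 and 4 (2.49 and 5.04). Of 5 monocyte and macrophage markers 1 and 3 were called higher (1.81 and 3.52), and of 4 plasmacytoid dendritic cell markers 1 and 2 (2.64 and 3.82). None of these 4 lists had a call in DN1 cells, where their medians lay between -0.45 and -0.02. The part of these cell types in the Tcf7 result was not tested.

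**Figure D2:**
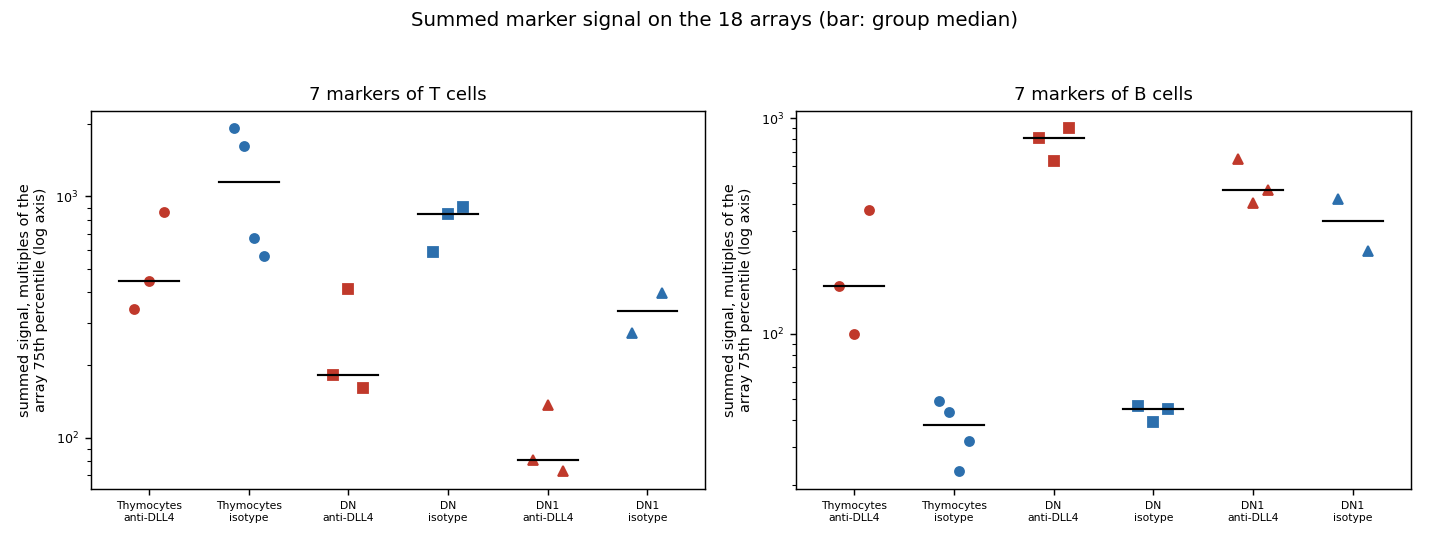
Summed signal of 7 T-cell and 7 B-cell markers (multiples of the array's 75th percentile, log axis) on each array, by population and antibody, with group medians as bars. T-cell marker signal was lower after anti-DLL4 in DN cells (161 to 414) than with isotype (589 to 907), and B-cell marker signal was higher (634 to 899 against 39.1 to 46.4).

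RNA of the genes used to sort was still measured in the sorted populations. Cd8b1, which encodes a chain of CD8, had a mean level of 3.83 in DN cells after anti-DLL4 and 6.97 with isotype, and 2.87 in anti-DLL4 and 6.47 in isotype DN1 cells, well above background on every array. In thymocytes it averaged 7.90 after anti-DLL4 and 8.80 with isotype. Cd8a, the other CD8 chain, averaged 0.31 in anti-DLL4 against 3.09 in isotype DN cells, 0.45 in anti-DLL4 against 4.10 in isotype DN1 cells, and 5.96 in anti-DLL4 against 6.86 in isotype thymocytes. Cd4 averaged -3.90 in anti-DLL4 against -2.24 in isotype DN cells, -3.75 in anti-DLL4 against -3.46 in isotype DN1 cells, and -1.95 in anti-DLL4 against -2.93 in isotype thymocytes. With isotype, Cd4 was thus no higher in thymocytes than in DN cells, which were sorted as CD4-. Its levels could therefore not show how well the sort removed CD4 cells. For the DN1 gate, Cd44 averaged 2.05 in anti-DLL4 and 2.73 in isotype DN1 cells, and Il2ra, which encodes CD25, averaged 0.27 and -1.45 in these groups. The summed signal of 5 markers of double-positive thymocytes was 17.8 to 19.4 in anti-DLL4 and 126 to 163 in isotype DN cells, and 5.98 to 42.3 in anti-DLL4 and 100 to 130 in isotype DN1 cells. Its part in the DN and DN1 results was not tested.

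Lef1, an HMG-box factor related to TCF-1 that binds the same DNA motif, gave no call. Its leading probe had levels of 5.48, 5.11 and 4.66 in anti-DLL4 thymocytes and 6.44, 6.72, 6.04 and 5.51 in isotype thymocytes, so that the groups just failed to overlap. In DN cells the levels were 5.13, 4.33 and 4.87 after anti-DLL4 and 4.68, 5.84 and 6.04 with isotype, and the groups overlapped. In DN1 cells they also overlapped, at 4.18, 2.95 and 4.39 after anti-DLL4 and 3.60 and 4.81 with isotype. The relative differences of this probe were -0.68, -0.10 and -0.33 in thymocytes, DN and DN1 cells (limma adjusted p = 0.367, 0.395 and 1). Probe 2, whose 60 bases align in pieces over 18162 bases of chromosome 3, differed more.

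On Lef1 probe 2 the levels were 2.19, 2.19 and 3.68 in anti-DLL4 thymocytes and 5.76, 4.38, 4.66 and 4.38 in isotype thymocytes. In DN cells they were 1.06, 1.39 and 2.10 after anti-DLL4 and 3.33, 2.51 and 2.98 with isotype. In DN1 cells they were -2.48, -1.09 and 1.87 after anti-DLL4 and 1.52 and 2.49 with isotype. The groups did not overlap in thymocytes and DN cells, and in DN1 cells 1 anti-DLL4 array lay between the isotype arrays. The relative differences were -1.69, -0.78 and -2.54 (limma adjusted p = 0.233, 0.276 and 0.673). Probe 3, well above background on 7 arrays, had differences whose 95% intervals ran from -1.39 to 5.91 in thymocytes and from -5.20 to 2.61 in DN cells, and it measured little.

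Gata3, the zinc-finger factor that T-cell specification needs, and Bcl11b, the zinc-finger factor of T-cell commitment, behaved alike, and neither was called. In thymocytes the 95% intervals of their unshifted differences were wide, from -1.44 to 2.13 for Gata3 probe 1 and from -2.76 to 1.99 for Bcl11b. On Gata3 probe 1 and on Bcl11b, most anti-DLL4 arrays were far below the isotype arrays in DN and DN1 cells. The exception was 1 anti-DLL4 array, replicate 2 in both populations. Gata3 probe 2 differed less in DN cells.

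Gata3 probe 1 had levels of 4.68, 5.55 and 6.41 in anti-DLL4 thymocytes and 5.96, 4.16, 5.30 and 5.38 in isotype thymocytes. In DN cells it had 2.76, 5.21 and 1.61 after anti-DLL4 and 5.37, 4.91 and 5.94 with isotype. In DN1 cells it had 1.83, 4.23 and 1.23 after anti-DLL4 and 5.13 and 4.89 with isotype. The groups overlapped in thymocytes and, through replicate 2, in DN cells, and did not overlap in DN1 cells. The relative differences were 0.77, -1.57 and -2.55 in thymocytes, DN and DN1 cells (limma adjusted p = 0.859, 0.131 and 0.725). Gata3 probe 2 gave relative differences of 0.63, -0.34 and -2.52 (adjusted p = 0.891, 0.354 and 0.442). In DN cells its levels were 1.16, 2.01 and 0.70 after anti-DLL4 and 1.47, 2.48 and 2.87 with isotype, and the groups overlapped. In DN1 cells they were -0.14, 2.21 and -0.86 after anti-DLL4 and 2.55 and 3.36 with isotype, without overlap.

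Bcl11b had levels of 0.55, 2.91 and 3.97 in anti-DLL4 thymocytes and 3.33, 0.79, 3.24 and 4.09 in isotype thymocytes. In DN cells it had -2.58, 2.30 and -1.76 after anti-DLL4 and 2.44, 1.77 and 3.08 with isotype. In DN1 cells it had -1.64, 0.31 and -1.75 after anti-DLL4 and 2.17 and 1.17 with isotype. Replicate 2 of the anti-DLL4 DN cells sat among the isotype DN arrays, and the other 2 lay more than 3 log2 units below them. The relative differences were 0.03, -2.46 and -2.67 in thymocytes, DN and DN1 cells (limma adjusted p = 0.883, 0.119 and 0.999). Without anti-DLL4 DN replicate 2 the DN difference was -4.60, against -3.11 with it, and passed the threshold (adjusted p = 0.0365). The probe under an older symbol of Bcl11b differed less in DN cells, by -1.28 ± 0.90 (SE), and was not called.

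The high anti-DLL4 arrays of both populations lie on slide 3, beside an isotype DN and an isotype DN1 array. The DN pair on that slide had array strengths of 1076.8 (anti-DLL4) and 260.2 (isotype). Within that slide the DN difference was -0.15 for Gata3 probe 1 and -0.14 for Bcl11b, where Tcf7 probe 2 differed by -3.22. Relative to that pair's median of all tested probes, -0.93, these were 0.78, 0.79 and -2.29. The DN1 difference was -0.89 for Gata3 probe 1 and -1.86 for Bcl11b, or -0.55 and -1.51 relative to that pair's median. On slide 5 the DN1 pair differed by -3.66 for Gata3 probe 1 and by -2.92 for Bcl11b, or -3.53 and -2.78 relative to its median. The T-cell marker sum was also highest in these replicates, at 414 in anti-DLL4 DN replicate 2 against 182 and 161 in the other anti-DLL4 DN arrays, and at 137 in anti-DLL4 DN1 replicate 2 against 80.6 and 72.5 in the other anti-DLL4 DN1 arrays. The part of slide and of T-cell content in the spread was not tested.

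**Figure D3:**
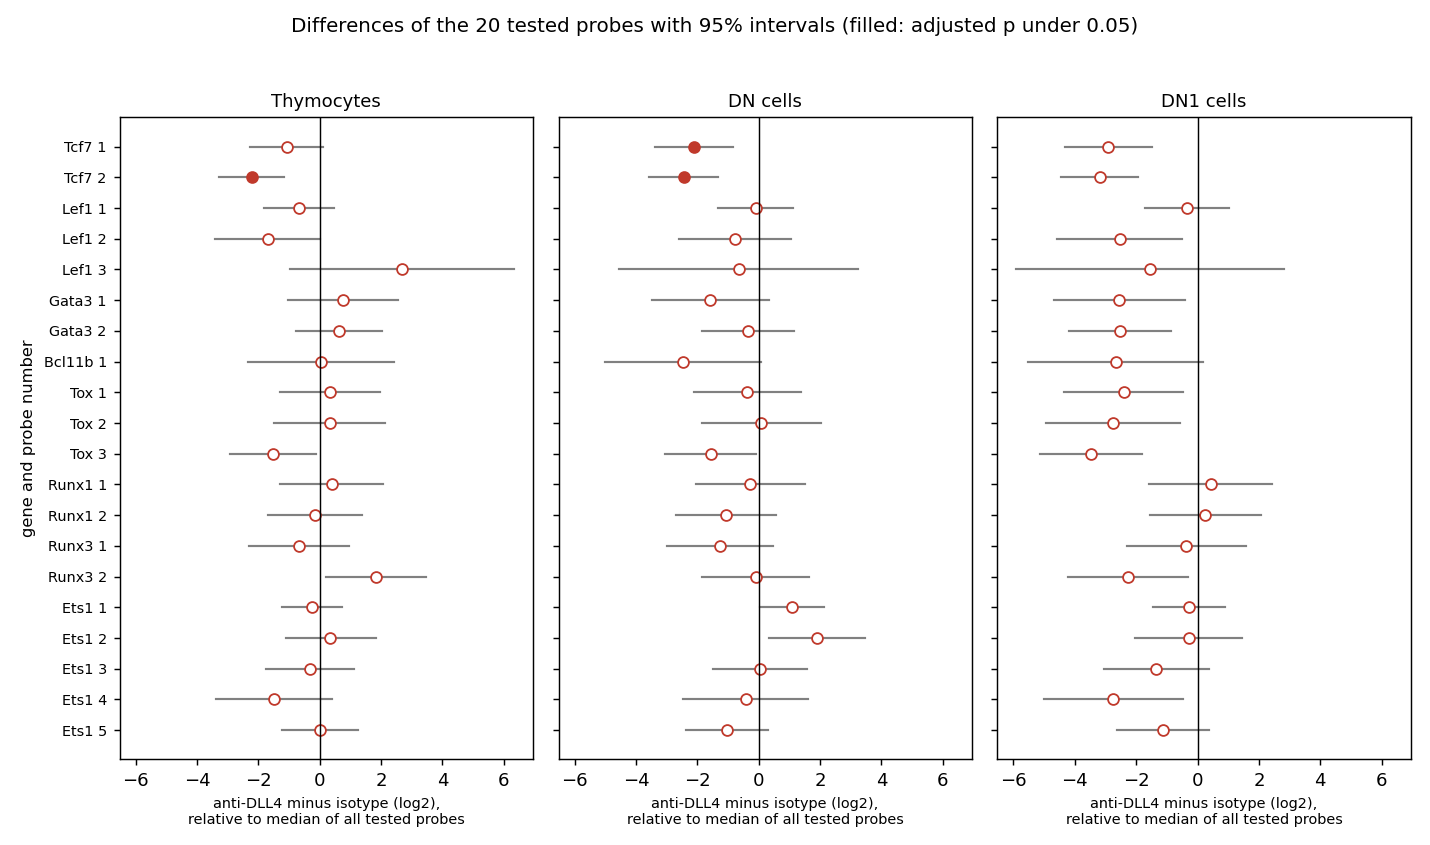
Anti-DLL4 minus isotype difference of each of the 20 tested probes (log2, relative to the median of all tested probes) with its 95% interval, in thymocytes, DN cells and DN1 cells; filled points passed an adjusted p of 0.05. Filled points are Tcf7 probe 2 in thymocytes (-2.22) and Tcf7 probes 1 and 2 in DN cells (-2.10 and -2.44).

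Tox, an HMG-box factor that CD4 T-cell development needs, had no call, and its 3 tested probes were lower on all anti-DLL4 arrays in DN1 cells. Tox probe 1 had levels of 0.57, 1.23 and -0.37 in anti-DLL4 and 2.57 and 3.25 in isotype DN1 cells. In thymocytes it had 3.72, 3.06 and 2.15 after anti-DLL4 and 1.60, 3.85, 2.85 and 4.00 with isotype, and in DN cells 1.14, 1.46 and 0.89 after anti-DLL4 and 0.51, 2.15 and 3.88 with isotype, and in both the groups overlapped. Its relative differences were 0.33, -0.37 and -2.40 in thymocytes, DN and DN1 cells (limma adjusted p = 0.958, 0.412 and 0.673). Tox probe 2 gave a relative difference of -2.76 in DN1 cells (adjusted p = 0.656), with levels of -1.91, -2.19 and -3.22 after anti-DLL4 and -0.13 and 0.82 with isotype.

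Tox probe 3 was lower on all anti-DLL4 arrays in each population. Its levels were -3.84, -4.55 and -5.21 in anti-DLL4 thymocytes and -2.62, -3.25, -0.85 and -3.68 in isotype thymocytes, a relative difference of -1.51 (adjusted p = 0.176). In DN cells 0 of 3 anti-DLL4 arrays had it well above background (mean -6.96), and 3 of 3 isotype arrays did (mean -4.77). Scaled by array strength, its signal had a lower bound of 3.15-fold on the decrease in anti-DLL4 DN cells. The bound puts each dim array at the lowest signal any well-detected probe had there, or at the measured value where that was higher. The median of all tested probes was not taken out of it, and the fitted difference was not called (limma adjusted p = 0.0848). Before scaling, the signals were 10.5, 10.9 and 3.2 after anti-DLL4 and 11.6, 9.0 and 28.2 with isotype, and overlapped. The bound therefore depends on the scaling, with array strengths of 260.2 and 337.9 for isotype DN replicates 1 and 2. In DN1 cells the levels of Tox probe 3 were -6.49, -7.73 and -7.64 after anti-DLL4 and -4.13 and -3.46 with isotype. This was a relative difference of -3.46 (adjusted p = 0.152).

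Runx1, a runt-domain factor that represses Cd4 in DN cells, had no probe past the threshold. Its probes were both lower in DN cells and both higher in DN1 cells, and had relative differences of opposite sign in thymocytes (0.39 and -0.15). Its leading probe had levels of -1.12, 0.45 and -0.64 in anti-DLL4 thymocytes and -2.22, 1.35, -0.85 and 0.10 in isotype thymocytes. In DN cells the levels were 0.63, -0.92 and 0.31 after anti-DLL4 and 0.08, 1.02 and 1.67 with isotype. All groups overlapped, in DN1 cells too, and the relative differences were 0.39, -0.27 and 0.43 in thymocytes, DN and DN1 cells (limma adjusted p = 0.986, 0.478 and 1). Runx1 probe 2, whose bases align over 30453 bases of chromosome 16, was lower on all anti-DLL4 DN arrays, between -2.0 and -1.15 against -0.87 to 1.16 with isotype, a relative difference of -1.05 (adjusted p = 0.16). The 2 probes correlated at r = 0.18 over the 18 arrays.

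Runx3, the runt-domain factor of the CD8 lineage, had overlapping groups in thymocytes on both probes. In DN cells probe 1 had levels of -3.09, -2.98 and -3.35 after anti-DLL4 and -0.49, -0.80 and -2.43 with isotype, which did not overlap, with a relative difference of -1.26 (adjusted p = 0.147). In DN1 cells it was probe 2 that separated, at -4.13, -3.53 and -5.32 after anti-DLL4 and -1.81 and -2.26 with isotype, a relative difference of -2.26 (adjusted p = 0.749). In thymocytes probe 2 went the other way, with a relative difference of 1.83 (adjusted p = 0.422), while probe 1 was at -0.67 (adjusted p = 0.538).

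Ets1, an ETS-domain factor that thymocytes and NK cells need, had overlapping groups on its brightest probe. The levels were 4.10, 4.02 and 4.05 in anti-DLL4 thymocytes and 5.44, 5.02, 4.01 and 4.44 in isotype thymocytes. In DN cells they were 4.16, 4.73 and 4.17 after anti-DLL4 and 3.29, 4.06 and 4.39 with isotype. In DN1 cells they were 3.20, 4.11 and 3.73 after anti-DLL4 and 3.93 and 4.08 with isotype. Groups overlapped in each population, and the relative differences were -0.25, 1.09 and -0.29 (limma adjusted p = 0.527, 0.565 and 1). The 95% interval of the unshifted DN1 difference ran from -1.49 to 0.84.

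The other 4 Ets1 probes disagreed with each other. In DN cells their relative differences were 1.91, 0.04, -0.42 and -1.03 for probes 2 to 5 (adjusted p = 0.26, 0.594, 0.467 and 0.115). Probes 3, 4 and 5 were lower on all anti-DLL4 arrays in DN1 cells, with relative differences of -1.34, -2.74 and -1.12 (adjusted p = 1, 0.71 and 1), while probe 2 was at -0.29 (adjusted p = 1). Anti-DLL4 DN1 replicate 1 was the lowest array on these 3, at -2.84, -5.51 and -6.58, the last not well above background.

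Counted over all 20 tested probes, 5 probes of 3 genes (Tcf7, Lef1 and Tox) were lower on all anti-DLL4 arrays in thymocytes, where 8.97% of all tested probes were. In DN cells 7 probes of 6 genes were, where 21.7% of all tested probes were. In DN1 cells 12 probes of 6 genes (Tcf7, Gata3, Bcl11b, Tox, Runx3 and Ets1) were, where 9.55% of all tested probes were. No member probe was higher on all anti-DLL4 arrays in thymocytes, DN or DN1 cells, where 4.67%, 9.67% and 8.58% of all tested probes were. The members' median relative difference was -0.07 in thymocytes, -0.53 in DN cells and -2.33 in DN1 cells. Probes of 1 gene share their target, so these are not counts of independent genes.

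The effect of anti-DLL4 was also compared between populations, with the difference of differences as the test. None of the 20 member probes was called in the 3 such comparisons, where 0.0107% (DN minus thymocytes), 0.0893% (DN1 minus thymocytes) and 0.137% (DN1 minus DN) of all tested probes were called. At an unadjusted p under 0.05 all tested probes numbered 3169 of 37444, 2599 of 38093 and 4426 of 38073. Member probes numbered 0, 3 and 0 of 20. Gata3 probe 1 had the effects farthest apart among the leading probes in DN1 cells and thymocytes, with a relative difference of -3.31 (adjusted p = 0.711). The other 2 of these 3 were Gata3 probe 2 (-3.14, adjusted p = 0.566) and Runx3 probe 2 (-4.08, adjusted p = 0.421), also in DN1 cells minus thymocytes. For Tcf7 probe 2 the unshifted difference of effects was -0.44 (95% interval -1.97 to 1.10) for DN minus thymocytes, and -0.58 (95% interval -2.21 to 1.06) for DN1 minus thymocytes. These comparisons share arrays with the ones above.

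Across the 6 groups, the mean levels of Tcf7 probe 1 ran 7.87 ± 0.80 in isotype thymocytes (SD, n = 4), 7.54 ± 0.15 in isotype DN cells (n = 3), 6.38 ± 0.06 in anti-DLL4 thymocytes (n = 3), 6.30 ± 0.49 in isotype DN1 cells (n = 2), 4.79 ± 0.95 in anti-DLL4 DN cells (n = 3) and 3.37 ± 0.77 in anti-DLL4 DN1 cells (n = 3). Neighbours overlapped except isotype DN cells with anti-DLL4 thymocytes, and isotype DN1 cells with anti-DLL4 DN cells. For Gata3 the order was anti-DLL4 thymocytes (5.55 ± 0.86), isotype DN cells (5.41 ± 0.52), isotype thymocytes (5.20 ± 0.75), isotype DN1 cells (5.01 ± 0.17), anti-DLL4 DN cells (3.19 ± 1.84) and anti-DLL4 DN1 cells (2.43 ± 1.59), and all neighbours overlapped. For Bcl11b it was isotype thymocytes (2.86 ± 1.43), anti-DLL4 thymocytes (2.47 ± 1.75), isotype DN cells (2.43 ± 0.66), isotype DN1 cells (1.67 ± 0.71), anti-DLL4 DN cells (-0.68 ± 2.62) and anti-DLL4 DN1 cells (-1.03 ± 1.16), again with all neighbours overlapping. Anti-DLL4 DN and DN1 cells thus held the 2 lowest means of Tcf7, Gata3, Bcl11b and Tox. On the leading probes of Lef1 and Runx1 the neighbours in the order overlapped throughout, as they did for Runx3 and Tox, and for Ets1 only anti-DLL4 DN cells and anti-DLL4 thymocytes stood apart.

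The populations were also compared within each antibody. No member probe was called in anti-DLL4 DN cells against anti-DLL4 thymocytes, where 0.28% of all tested probes were called, or in anti-DLL4 DN1 against anti-DLL4 DN cells, where 0% were. None was called in isotype DN cells against isotype thymocytes (1.13%) or in isotype DN1 against isotype DN cells (1.1%). At an unadjusted p under 0.05 there were 7, 3, 4 and 3 of 20 member probes in these 4 comparisons. All tested probes numbered 2487 of 33543, 1525 of 35175, 7107 of 35878 and 6838 of 36063 there. Between anti-DLL4 DN cells and anti-DLL4 thymocytes 7 probes were lower on all DN arrays, where 6.7% of all tested probes were, among them both Tcf7 probes, and Ets1 probe 1 was higher on all of them, where 6.66% of all tested probes were. Scaled by array strength, Tox probe 3 had a lower bound of 3.71-fold on its decrease in anti-DLL4 DN cells against anti-DLL4 thymocytes. Between isotype DN cells and isotype thymocytes 4 probes were lower on all DN arrays, where 7.11% of all tested probes were, among them Tcf7 probe 2, with a relative difference of -1.80 (adjusted p = 0.145).

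Gata3 and Bcl11b ran together across the arrays. Their leading probes correlated at Pearson r = 0.93 and Spearman rho = 0.94 over the 18 arrays, and at r = 0.87 after each group's mean was taken out. The correlation was 0.93 over the 9 anti-DLL4 arrays and 0.80 over the 9 isotype arrays, and 0.93 without the 2 arrays farthest from the Gata3 median. Tcf7 and Gata3 correlated at r = 0.82 over all arrays, at 0.91 over the anti-DLL4 arrays and at 0.13 over the isotype arrays. After group means were taken out, Tcf7 correlated at 0.66 with Gata3 and at 0.33 with Bcl11b. Of the 28 pairs of leading probes 23 correlated positively, with a median r of 0.40, and of 0.2 after group means were taken out. These values are descriptions: points of 1 array share its RNA, scaling and cell makeup.

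**Figure D4:**
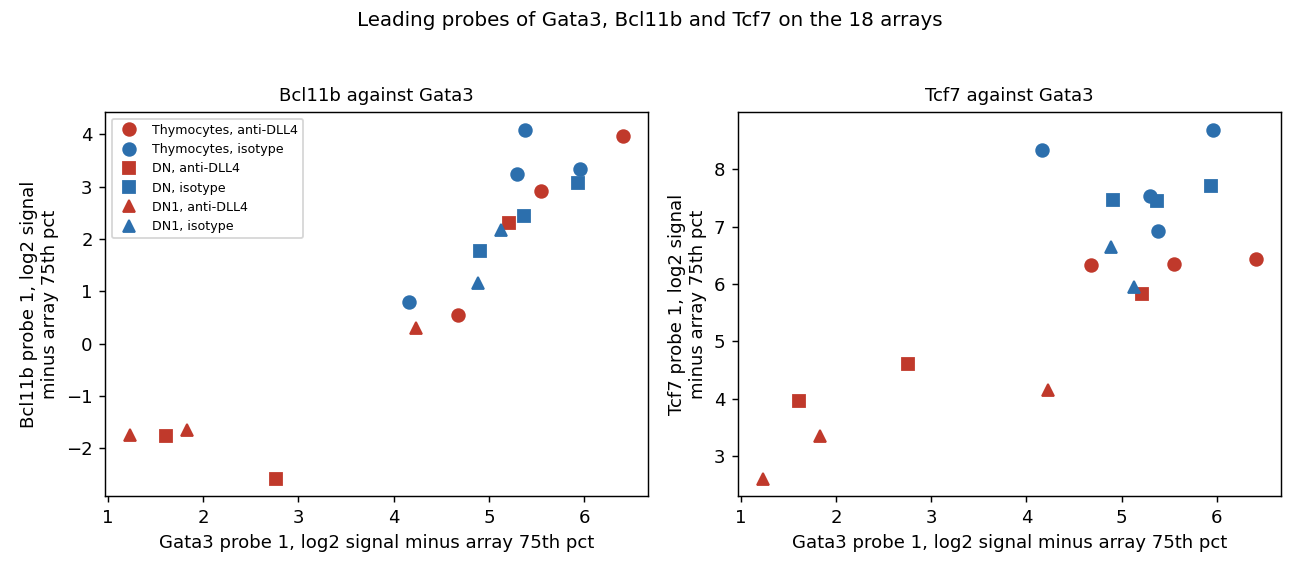
Level of the leading probes of Bcl11b (left) and Tcf7 (right) against Gata3 on the 18 arrays (log2 signal minus the array's 75th percentile); red is anti-DLL4, blue isotype, and shapes mark populations. Bcl11b follows Gata3 across all arrays (r = 0.93), and 2 anti-DLL4 DN and 2 anti-DLL4 DN1 arrays lie low on both Gata3 and Bcl11b.

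Because Gata3 correlated with both Tcf7 and Bcl11b over the anti-DLL4 arrays, windows at the starts of these genes are shown. They are from RefSeq (build GRCm38.p6, 250 bases before to 50 after the start). Such windows matched 6 of the 8 genes, 12 windows in all. Each was searched on both strands for short motifs of 5 families, and the share of 32851 windows of the same length that hold each motif is given beside it. The RUNX motif was TGTGGT, found in 16.8% of windows. The motif of the TCF/LEF family, to which Tcf7 and Lef1 belong, was CTTTGA, found in 16.0% of them. The motif for GATA factors was AGATAA, found in 11.2% of windows. For ETS factors the letters were GGAAGT, with a share of 23.8%. RBPJ, the DNA-binding partner of Notch, was searched as TGGGAA, with a share of 25.6%. Matches are in capitals, and no match overlaps another in these windows. Tcf7 has 2 windows, and the one shown, window 2, lies at chr11:52282546-52282845, the Gata3 window at chr2:9878551-9878850 and the Bcl11b window at chr12:108003365-108003664, all on the minus strand.
Tcf7: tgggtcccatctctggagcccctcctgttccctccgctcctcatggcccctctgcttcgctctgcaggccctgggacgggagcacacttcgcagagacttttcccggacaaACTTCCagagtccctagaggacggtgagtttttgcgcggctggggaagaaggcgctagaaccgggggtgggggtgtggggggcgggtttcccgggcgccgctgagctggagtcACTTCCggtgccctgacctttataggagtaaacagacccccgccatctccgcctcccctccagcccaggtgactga
Gata3: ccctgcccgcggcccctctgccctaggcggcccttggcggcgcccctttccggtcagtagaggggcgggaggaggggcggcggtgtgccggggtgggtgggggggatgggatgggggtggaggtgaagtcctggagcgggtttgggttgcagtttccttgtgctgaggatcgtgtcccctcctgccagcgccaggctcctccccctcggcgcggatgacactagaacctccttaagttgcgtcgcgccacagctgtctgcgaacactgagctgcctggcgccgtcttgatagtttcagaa
Bcl11b: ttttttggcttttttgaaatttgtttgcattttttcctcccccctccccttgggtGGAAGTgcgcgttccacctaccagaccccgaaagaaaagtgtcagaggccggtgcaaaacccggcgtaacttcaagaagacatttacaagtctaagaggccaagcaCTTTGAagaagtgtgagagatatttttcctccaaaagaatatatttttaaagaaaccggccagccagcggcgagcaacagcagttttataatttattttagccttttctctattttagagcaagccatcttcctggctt
Tcf7 window 2 holds 2 ETS matches, and window 1, at chr11:52282965-52283264 and not shown, holds 0 matches of the 5 motifs. The Bcl11b window holds 1 ETS and 1 TCF/LEF match, and in the Gata3 window none of these letters occurs. Over all 12 windows, RUNX letters occurred in 2, TCF/LEF in 2, GATA in 1, ETS in 3 and RBPJ in 4. The RBPJ matches lay in Lef1 windows 1, 2 and 3 and Runx3 window 1, not shown. Lef1 windows 1 and 2 overlap and share their match. A match is a description of the letters and not a site.

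By correlation over the 18 arrays, the genes most like Tcf7 among 19511, the 8 factors themselves left out, were Syt13 (r = 0.975) and Ptprf (r = 0.974), and those most like Bcl11b were Ptpn7 (r = 0.901) and Tmem42 (r = 0.895). The gene most like Gata3 was Bach1 (r = 0.934). Tox was most like Fyb (r = 0.911), Emb (r = 0.907) and Prkcq (r = 0.904). Lef1 was most like Ndufb6 (r = 0.953), Runx1 most like Mrpl36 (r = 0.816), Runx3 most like Tm6sf2 (r = 0.893), and Ets1 like 2510039O18Rik and Rce1 (r = 0.903 each).

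Other regulators gave the surroundings of these values, each gene read by its brightest probe. Of all genes, 1.26% were called in thymocytes, 3.86% in DN cells and 0.1% in DN1 cells. Calls split into 1.01% higher and 0.248% lower in thymocytes, and 2.54% higher and 1.31% lower in DN cells. In DN1 cells no gene of the 6 lists below was called, with limma and this rule. Of 20 other T-lineage regulators none was called in thymocytes, and in DN cells Klf2, a factor of lymphocyte egress, rose (relative difference 4.58, adjusted p = 0.000959) and Themis, a T-cell receptor signalling protein, fell (-2.29, adjusted p = 0.0405). Of 23 T-cell genes downstream, Il7r, the interleukin-7 receptor, rose in thymocytes (2.64, adjusted p = 0.0245) and in DN cells (2.74, adjusted p = 0.0239). In DN cells Ptcra, the pre-T-cell receptor alpha chain (-2.78, adjusted p = 0.0456), and Ccr9, a homing receptor of thymocytes (-2.73, adjusted p = 0.0461), fell. The median relative difference of these 23 was -0.58, -0.86 and -1.94 in thymocytes, DN and DN1 cells, where all genes had -0.05, -0.03 and 0.02. Without the 2 dim isotype DN arrays no gene of either list was called in DN cells.

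Regulators of other lineages were called higher. Of 8 B-lineage regulators 4 rose in thymocytes, among them Pax5 (relative difference 7.04, adjusted p = 0.00108) and Ebf1 (6.15, adjusted p = 0.000761), and 5 of 7 tested rose in DN cells, among them Pax5 (7.92, adjusted p = 0.000222) and Irf4 (7.03, adjusted p = 0.000114). Of 10 innate-lineage genes 2 rose in thymocytes and 5 in DN cells, among them Id2, an inhibitor of E proteins (4.38, adjusted p = 0.0435). Of 10 progenitor and myeloid regulators 2 rose in thymocytes and 3 in DN cells, among them Lyl1 (5.33, adjusted p = 0.000686). Of 12 paralogues and partners of the 8 factors, Bcl11a, the paralogue of Bcl11b that B cells use, rose in thymocytes (4.02, adjusted p = 0.0256), and none was called in DN cells. Without the 2 dim isotype DN arrays the DN counts were 2 B-lineage, 0 innate-lineage and 1 progenitor and myeloid gene. Some markers of B cells, NK cells, dendritic cells and monocytes were also called higher in thymocytes and DN cells, as given above. Spib, Il2rb and Klrd1 are among both these markers and the listed regulators and genes, so the 2 kinds of list are not separate readings. The part of these cell types in the regulator calls was not tested.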

How the data were processed

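The authors deposited one Cy3 intensity per spot. Per the file headers, Agilent Feature Extraction 9.5.3.1 made it (the submitters' processing notes name 9.5), with background subtraction and detrending inside an array and no scaling across arrays. RNA was amplified in 2 rounds, per the labels' protocols. The authors' deposited flag columns mark spots well above background as 0 or 1. Deposited ratios of 43225 probes, with scale, centring and direction not stated in the sources used here, served as an alternative; their log2 values differed from the centred scanner values by medians of -0.014 to 0.003 per array, with column medians of 0.638 to 1.423. What the authors divided by is unknown.

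Each processed signal was divided by its array's 75th percentile and put on the log2 scale. Control and outlier spots were left out, and spots of the same probe were averaged. A probe entered the fit if detected above background on 2 or more of 18 arrays, and limma 3.58.1 (R 4.3.3) then fitted 1 linear model of 6 group means. It was tested between groups that held 2 or more such arrays. Tests were two-sided, Benjamini-Hochberg adjustment ran over all tested probes, and a call needed an adjusted p under 0.05. The script was tested on simulated data. The number of arrays limits the precision. The design text names 3 isotype thymocyte samples and the labels 4; all 4 were used. The design text also names 4 animals per antibody.

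Probes were named by the scanner files' gene names, and for 0 of the 21 did the RefSeq annotation of GRCm38.p6 give another name. The members and gene lists were chosen with earlier results of these data known. All member probes are described, the brightest leading; up to 6 called genes per list and the 3 genes most correlated with each member could be named, and 1 called list gene is not reported here. Alternatives were other background corrections, scalings, filters, blocks, sample sets and the deposited ratios. Replicate numbers did not pair samples: deviations of same-numbered arrays correlated at -0.22 to 0.27.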

Additional observations from a re-analysis of the deposited data

Results flagged for a closer look

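Tox probe 2 in isotype thymocytes had 1 sample far from the others: replicate 1 was at -2.66, and replicates 2 to 4 were at 0.75, 0.24 and 0.47. Its gap to the nearest array was 0.849 of the group's range. Chance sets apart about 1 group in 20 of this size, and 21 probes were looked at. On the same array Tox probe 1 was at 1.60, the lowest of its group.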

How the results depend on the processing

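Of 10 comparisons, the member calls depended on the processing in 4. The thymocyte count of 1 (Tcf7 probe 2) was 0 with slide as a fixed block, with only the compared groups fitted and with 1 probe per gene, where the leading Tcf7 probe stood for the gene; leaving out 1 array at a time gave 0 to 1. The DN count of 2 (both Tcf7 probes) was 1 with normexp background, with slide as a fixed block, with only the compared groups and with 1 probe per gene; leaving out 1 array gave 1 to 3, and leaving out both dim isotype DN arrays, an alternative added after seeing the data, gave 0. The DN1 count of 0 was 1 (Tcf7 probe 2) with quantile normalization, a stricter filter on dim probes, array strength as a covariate and the deposited ratios (adjusted p = 0.0242, 0.0463, 0.0176 and 0.0496), and 0 to 1 when 1 array was left out. In isotype DN cells against isotype thymocytes the count was 1 with quantile normalization (Tox probe 3). With a replicate block the counts were 1, 2 and 0 in thymocytes, DN and DN1 cells, as without the block, and it changed no other call; the numbers did not pair samples, with correlations of -0.22 to 0.27. Over all alternatives the difference stayed negative for Tcf7 probe 2 (-2.85 to -2.31 in thymocytes, -3.58 to -2.57 in DN, -3.82 to -2.24 in DN1 cells) and for Tcf7 probe 1. The median of all tested probes moved to 0.16, -1.28 and -0.20 with normexp and to -0.20, -0.02 and -0.06 with quantile normalization. No called difference changed sign under these alternatives, and the cause of the lost calls was not tested. Within a probe, signal over background limits Lef1 probe 3, Tox probes 3 and 4 and Ets1 probe 5.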

Other observations

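A probe outside the 21, named 9130430L19Rik on the array, is listed in the RefSeq table as an older symbol of Bcl11b. It was well above background on all 18 arrays. Its anti-DLL4 minus isotype differences were -0.47 ± 0.84 in thymocytes, -1.28 ± 0.90 in DN cells and -1.98 ± 1.01 in DN1 cells (SE), and none was called (limma adjusted p = 0.805, 0.349 and 1).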
